A study of Mus musculus with 6 samples.

Results

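The genes described here are those of polyamine metabolism in mouse gastrocnemius, a mixed but mostly fast calf muscle. Members were taken by gene symbol from the authors' deposited table, and 9 of the 10 sought were among its 11815 genes. They were Odc1, Amd1, Amd2, Sms, Smox, Sat1, Oaz1, Oaz2 and Azin1; Srm was absent from the table. Muscle RNA of wild-type (WT) mice and of mice without the long non-coding RNA lnc-ORA was sequenced in 3 libraries per genotype, to ask how lnc-ORA acts in the switch between muscle fibre types. The knockout (KO) animals were made on a C57BL/6 background by injecting Cas9 mRNA with a guide pair into fertilized eggs, which removed 5147 bp holding the whole transcript. Founders were bred to wild-type mice. The design text gives an age of 15 weeks for the KO animals, and neither the WT age, the sex, the number of founder lines nor the zygosity is stated in the labels. No other allele, agent or transgene is named for either genotype.

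Polyamines are small positively charged molecules that bind nucleic acids and are needed for translation and growth. Ornithine decarboxylase (Odc1) makes putrescine, and S-adenosylmethionine decarboxylase (Amd1, with its copy Amd2) makes the aminopropyl donor that spermidine synthase (Srm) and spermine synthase (Sms) add to it. Spermine oxidase (Smox) turns spermine back into spermidine, and the acetyltransferase Sat1 marks spermidine and spermine for oxidation or export. The antizymes Oaz1 and Oaz2 send the Odc1 protein to the proteasome, and the antizyme inhibitor Azin1 holds the antizymes back. Antizyme protein is made only after a ribosomal frameshift, which RNA levels do not show. In skeletal muscle, Smox, Amd1 and Odc1 are known to respond to conditions that change fibre size.

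Amd1 and Amd2 are shown side by side because their sequence decides what their values can mean. Amd1 (ENSMUSG00000075232) lies at chr10:40287458-40302186 on the minus strand of GRCm38, and its longest transcript in GENCODE M21 has 8 exons. Amd2 (ENSMUSG00000063953), at chr10:35708675-35711892 on the same strand, has a single exon. Both coding sequences are 1005 bases long, and they differ at 1 position, G796C, counted from 1 at the first base of the start codon with the Amd1 base first. Coding positions 766 to 825 around this difference are printed 5′ to 3′ from the GENCODE M21 transcripts, with the differing base in capitals.
Amd1: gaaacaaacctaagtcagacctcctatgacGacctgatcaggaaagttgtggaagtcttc
Amd2: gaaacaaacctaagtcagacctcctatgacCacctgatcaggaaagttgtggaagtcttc
Of the 50-base stretches of the longest Amd1 transcript, 87.6% also occur in transcripts of other genes, and for Amd2 the share is 85.7%. How reads of such stretches were assigned was not given in the sources used here, so the split of reads between the copies is uncertain. The sum of both is free of that split only if each read was counted once. It may also lack reads given to the pseudogenes Amd-ps1, Amd-ps3 and Amd-ps4, which share stretches with both.

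The sequence before the start of transcription was compared too. The 250 bases upstream of each start are given from RefSeq (GRCm38.p6), 5′ to 3′ on the minus strand, at chr10:40302189-40302438 for Amd1 and chr10:35711892-35712141 for Amd2. Capitals mark a GC box, searched as GGGCGG on both strands.
Amd1: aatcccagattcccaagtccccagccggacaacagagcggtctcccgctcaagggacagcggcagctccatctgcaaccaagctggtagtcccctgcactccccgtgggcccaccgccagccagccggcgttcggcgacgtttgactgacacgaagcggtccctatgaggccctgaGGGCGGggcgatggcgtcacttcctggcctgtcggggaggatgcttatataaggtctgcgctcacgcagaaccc
Amd2: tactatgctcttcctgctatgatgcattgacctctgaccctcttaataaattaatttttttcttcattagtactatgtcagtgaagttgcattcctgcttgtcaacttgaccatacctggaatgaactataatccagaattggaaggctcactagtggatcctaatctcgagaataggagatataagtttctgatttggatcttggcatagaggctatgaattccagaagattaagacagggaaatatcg
In a global alignment these windows were 43.7% identical. Among the pairs of these windows with those of Smox and Odc1, Amd1 and Smox shared 49.8%, Amd1 and Odc1 47.7%, Amd2 and Smox 43.0%, and Amd2 and Odc1 36.1%. RefSeq held windows for 8 of the members, Sms with an alternative start, and 6 of these 9 windows held a GC box, against 32.74% of all 32851 mouse windows of this length. The E-box CACGTG, searched likewise, was in 1 of the 9 windows, an Sms window, against 6.02% of all windows. These matches describe the letters only.

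Values were RPKM, reads scaled to gene length and to the library total, so levels can be compared between genes. Library totals recovered from the values lay between 54370181 and 69693905 reads, and the members had at least 682 reads in every library. Differences between genotypes were tested with limma on log2(RPKM + 1) over 7574 genes, and a gene is said to have risen or fallen where its Benjamini-Hochberg adjusted p was under 0.05. Over all tested genes 290 were higher in KO (3.83%) and 1021 lower (13.5%), with a median log2 fold change of -0.09. This split depended on scaling. With library medians made equal it was 602 higher and 665 lower, and with library totals counted without the 10 most abundant genes it was 683 and 600, since both settings moved the median log2 fold change of all genes, by 0.10 and 0.11. Nothing in the labels ties each library to an animal of its own, so p-values here measure the spread between libraries, which may be technical. The level of lnc-ORA itself was not analysed here, and the genotype labels were taken as given.

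Of the 9 measured polyamine genes, 3 rose in KO muscle (Amd1, Amd2 and Smox) and 1 fell (Odc1), beside the 3.83% and 13.5% of all tested genes (17.3% in either direction). The genes were chosen with earlier results of these data known, so an excess over such shares is no test of the group. The rises of Amd1 and Amd2 may be 1 signal, as most of their sequence is shared and the split of their reads is uncertain. The other 5 were not called. In 7 of the 9 genes the KO and WT libraries did not overlap. In 5 of these every KO library was higher, a pattern seen in 9.22% of tested genes, and in Odc1 and Sms every KO library was lower, as in 30.0% of tested genes. As all RNA came from whole muscle, a change in the number of cells of a type and a change in RNA per cell cannot be told apart.

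**Figure D1:**
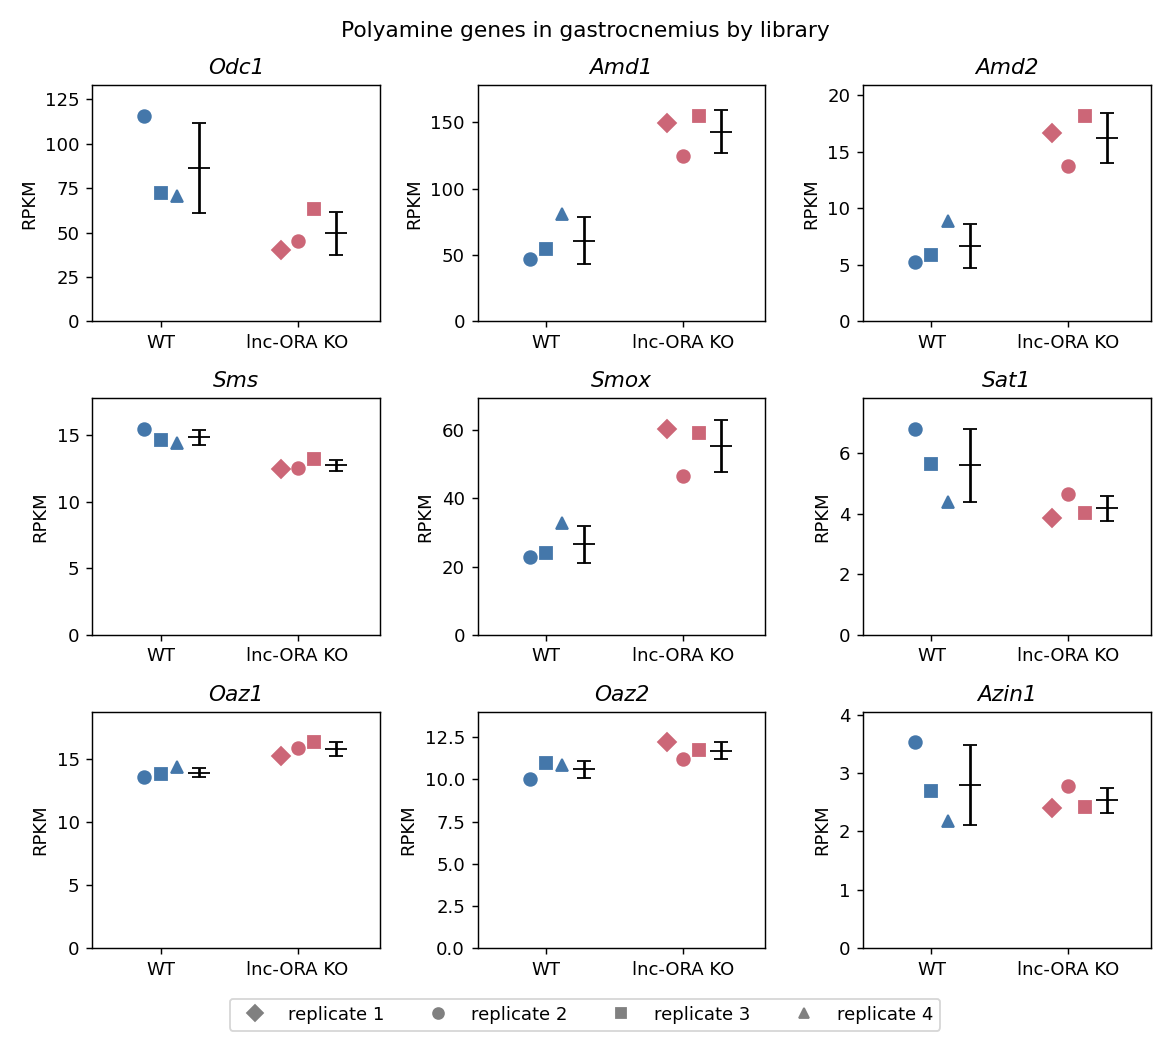
Level of each measured polyamine gene in RPKM (vertical axes from 0) in the 3 WT and 3 lnc-ORA KO libraries, one symbol per replicate number, with the mean and SD of each group to the right of its points. Amd1, Amd2 and Smox stood higher in every KO library than in any WT library, and Odc1 stood lower.

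Among the genes of synthesis, Amd1 had the highest mean level in KO muscle and Odc1 in WT muscle. Amd1 stood at 46.8, 54.5 and 80.5 RPKM in WT replicates 2, 3 and 4 and at 149, 124 and 155 RPKM in KO replicates 1, 2 and 3. The lowest KO library was thus above the highest WT library. WT muscle averaged 60.6 ± 17.7 RPKM and KO muscle 143 ± 16.3 RPKM (SD, n = 3 libraries each). The log2 fold change was 1.25 (SE 0.19, adjusted p = 0.00602 with limma). By mean level over the 6 libraries Amd1 ranked 277 of the 11815 genes, and by log2 fold change it ranked 14 from the top among the 7574 tested.

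Amd2 moved with Amd1 at a lower level. Its values were 5.22, 5.90 and 8.89 RPKM in the WT libraries and 16.7, 13.8 and 18.2 RPKM in the KO libraries, again without overlap. The log2 fold change was 1.19 (SE 0.18, adjusted p = 0.00585 with limma). In every library the reads counted to Amd2 came to between 9.82% and 10.7% of those counted to Amd1, at 9.99 ± 0.156% in WT and 10.3 ± 0.322% in KO (exact two-sided permutation p = 0.2; n = 3 each). This ratio of counted reads changed little while the levels changed, as the plot of the reads shows. Most of the sequence is shared, so the assignment of shared reads may set the ratio, which was not tested. In that permutation test 3 libraries against 3 allow no p below 0.1, so it cannot show a constant ratio. The summed level of Amd1 and Amd2 was 67.3 ± 19.6 RPKM for WT and 159 ± 18.5 RPKM for KO, 2.36 times as much. The mean log2 difference of the sum was 1.27 (exact two-sided permutation p = 0.1, the smallest that 3 libraries against 3 allow).

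**Figure D2:**
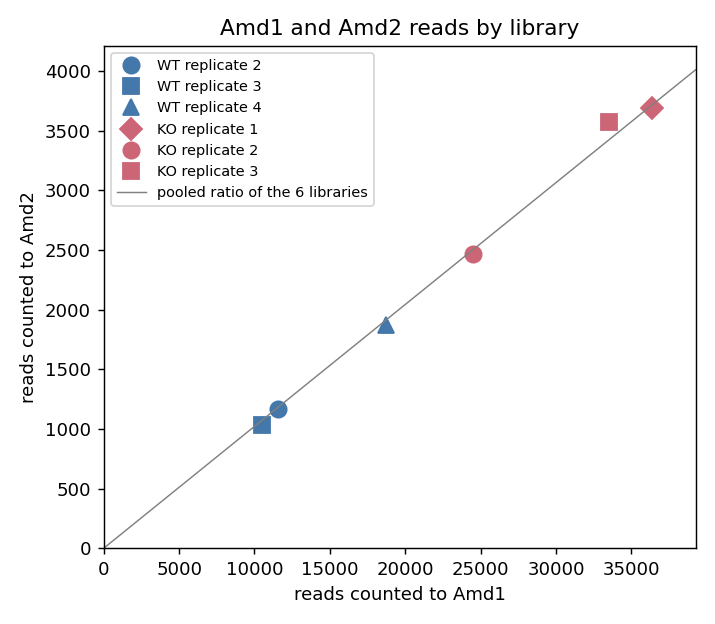
Reads counted to Amd2 (vertical axis) against reads counted to Amd1 (horizontal axis) in each of the 6 libraries, with a line at their pooled ratio. WT libraries lie at 10505 to 18697 Amd1 reads and KO libraries at 24488 to 36340, and all 6 lie close to the line.

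Processed copies of the same gene, chosen for mention after their values were seen, stood higher in KO muscle too. Amd-ps3 had 8.53 ± 0.991 RPKM in WT and 19.0 ± 2.37 RPKM in KO (log2 fold change 1.07, adjusted p = 0.00199 with limma), and Amd-ps4 at 0.461 ± 0.0522 and 1.31 ± 0.123 RPKM. Amd-ps4 reached the filter of 1 RPKM only in the KO libraries, where it is high, so its values are given without a test. Both share 50-base stretches with Amd1 and Amd2, so their values are not independent of the reads of those genes.

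Odc1, the first enzyme of the pathway, went the other way. It stood at 116, 72.5 and 70.9 RPKM in WT replicates 2, 3 and 4 and at 40.0, 45.5 and 63.4 RPKM in KO replicates 1, 2 and 3. WT replicate 2 was far above the other WT libraries, and KO replicate 3 came near the lowest WT library. WT muscle averaged 86.4 ± 25.5 RPKM and KO muscle 49.6 ± 12.2 RPKM (log2 fold change -0.78, SE 0.22, adjusted p = 0.0484 with limma). The call was close to the threshold. It ended at an adjusted p of 0.0516 under equal library medians, of 0.0718 when totals left out the 10 most abundant genes and of 0.0791 with replicate number as a block. That block takes the genotype difference from replicates 2 and 3 only, since the other numbers occur in 1 genotype each. Leaving out WT replicate 2, WT replicate 3, KO replicate 1 or KO replicate 2 ended the call too, at adjusted p of 0.0807, 0.0762, 0.154 and 0.128. The log2 fold change stayed below 0 in all 12 alternatives, between -0.96 and -0.55. Of the 50-base stretches of its longest transcript, 42.2% also occur in transcripts of other genes.

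As the levels of Amd1 and Odc1 went in opposite directions, the order of their group means changed. In WT replicate 4, however, Amd1 was already above Odc1, at 80.5 and 70.9 RPKM. The summed level of Amd1 and Amd2 was 0.449, 0.834 and 1.26 times that of Odc1 in the WT libraries and 4.15, 3.03 and 2.73 times in the KO libraries. Every KO ratio was above every WT ratio. This was fixed by the values above, as Amd1, Amd2 and Odc1 each showed no overlap between genotypes. The ratio was not among the planned comparisons and is given as description only.

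Sms, which makes spermine, stood at 15.5, 14.6 and 14.4 RPKM in WT and at 12.5, 12.5 and 13.2 RPKM in KO. The KO libraries were all lower, but by little: the log2 fold change was -0.20 (95% interval -0.38 to -0.03, adjusted p = 0.0968 with limma). Under equal library medians it was -0.10, and with totals without the 10 most abundant genes -0.07. For Sms, 28.7% of the 50-base stretches occur in other transcripts.

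Smox, the spermine oxidase, was the member of the breakdown branch that rose. It lies at chr2:131491496-131525922 on the plus strand of GRCm38, and none of the 50-base stretches of its longest transcript occurs in a transcript of another gene. Smox stood at 22.8, 23.9 and 32.7 RPKM in the WT libraries and at 60.3, 46.4 and 59.0 RPKM in the KO libraries. The groups were well apart, at 26.5 ± 5.42 and 55.2 ± 7.66 RPKM. The log2 fold change was 1.04 (SE 0.16, adjusted p = 0.00585 with limma), which ranked 26 from the top among tested genes.

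Sat1, the acetyltransferase, was low and did not rise with it. Its values were 6.79, 5.63 and 4.38 RPKM in WT and 3.87, 4.64 and 4.02 RPKM in KO, with WT replicate 4 below KO replicate 2. The log2 fold change was -0.34 (95% interval -0.65 to -0.02, adjusted p = 0.126 with limma), and without WT replicate 4 it was -0.48 and passed (adjusted p = 0.0239). In RPKM, Smox was 3.36, 4.25 and 7.46 times as high as Sat1 in the WT libraries and 15.6, 10.01 and 14.7 times in the KO libraries. This ratio, too, was not among the planned comparisons and is given as description only.

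None of the 3 genes that control Odc1 protein was called. Oaz1 stood at 13.6, 13.8 and 14.3 RPKM in WT and at 15.2, 15.9 and 16.3 RPKM in KO, without overlap and with a log2 fold change of 0.17 (95% interval 0.0023 to 0.34, adjusted p = 0.145 with limma). It passed in 1 of the 12 alternatives, where totals left out the 10 most abundant genes (0.31, adjusted p = 0.0306). Of its 50-base stretches 20.1% occur elsewhere, among other places in its pseudogene Oaz1-ps. That pseudogene, named for this reason, had 13.6 ± 1.87 RPKM in WT and 16.4 ± 4.12 RPKM in KO (adjusted p = 0.413).

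Oaz2 stood at 10.02, 10.96 and 10.8 RPKM in WT and at 12.2, 11.2 and 11.7 RPKM in KO. The groups met almost without a gap, and the log2 fold change of 0.13 did not pass (95% interval -0.05 to 0.31, adjusted p = 0.276 with limma).

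Azin1, the antizyme inhibitor, was the lowest of the members at 3.53, 2.69 and 2.17 RPKM in WT and 2.39, 2.78 and 2.43 RPKM in KO. The KO libraries lay inside the WT range. Its log2 fold change of -0.09 (95% interval -0.39 to 0.21, adjusted p = 0.659 with limma) changed sign with either other scaling and without WT replicate 2. Relative to the summed level of Oaz1 and Oaz2, Azin1 stood at 0.115 ± 0.0319 in WT and 0.0922 ± 0.00909 in KO (exact two-sided permutation p = 0.4; n = 3 each). Odc1 relative to the same sum stood at 4.91, 2.93 and 2.82 in the WT libraries and at 1.46, 1.68 and 2.26 in the KO libraries. This ratio does not depend on library scaling. Its mean log2 difference was -0.96 (exact two-sided permutation p = 0.1, the smallest possible), and -0.70 without WT replicate 2. The groups of this ratio did not overlap. That was fixed by the genes' own values, as Odc1 was lower and both antizyme genes were higher in every KO library.

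**Figure D3:**
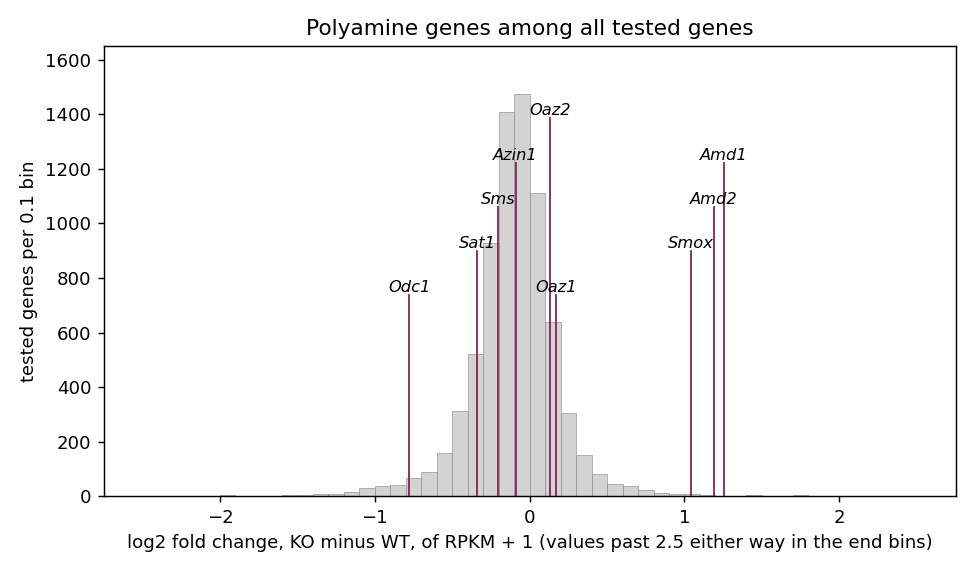
Histogram of the log2 fold change (horizontal axis, KO minus WT, of RPKM + 1) of all 7574 tested genes in bins of 0.1, with a line and name for each of the 9 polyamine genes. Amd1, Amd2 and Smox stand in the upper tail, Odc1 in the lower tail and the other 5 within the bulk.

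The libraries of 1 genotype also differed from each other, for several genes in a shared way that was not the same in WT and KO. Of the WT libraries, replicate 4 had the highest Amd1, Amd2 and Smox and the lowest Odc1, Sms, Sat1 and Azin1. WT replicate 2 had the lowest Amd1, Amd2 and Smox and the highest Odc1, Sms, Sat1 and Azin1. Among the KO libraries, replicate 2 had the lowest Amd1, Amd2 and Smox and the highest Sat1 and Azin1. Odc1 and Sms did not follow there: both were highest in KO replicate 3, which also had the highest Amd1 and Amd2. Summed over the 9 genes, the level was 205 to 240 RPKM in WT and 277 to 343 RPKM in KO.

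Likeness of profile was measured as the distance over the 6 libraries between log2(RPKM + 1) values, each gene centred on its WT mean. Out of the tested genes, those nearest to Amd2 were Amd1 (0.15), Smox (0.30) and Kcng4 (0.36). Because Amd1 and Amd2 share most of their sequence, their nearness may come from the same reads. Nearest to Smox were Mettl21c (0.23), Kcng4 (0.23) and Amd2 (0.30). Kcng4, a potassium channel subunit, had 1.25 ± 0.412 RPKM in WT and 3.58 ± 0.211 RPKM in KO (log2 fold change 1.04, adjusted p = 0.00282 with limma). Mettl21c, a lysine methyltransferase of muscle, stood at 3.66 ± 0.491 and 8.84 ± 1.59 RPKM (1.07, adjusted p = 0.00304). Amd2 and Smox were used here as the members with the smallest p, so genes near them share their difference between genotypes by selection.

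Around these genes, 8 lists of neighbouring steps held 69 genes, of which 45 were in the table and 29 were tested. None was called higher and 2 were called lower, Sat2 and Oat, beside 3.83% higher and 13.5% lower of all tested genes. Their median log2 fold change was -0.06, beside -0.09 for all tested genes. At an unadjusted p under 0.05 in limma, 1 was higher and 7 were lower. The share of all tested genes at that level was not counted. This and the like counts below therefore cannot tell whether the lists shifted or not. On the recovered reads limma-voom called 0 higher and 2 lower, beside 310 and 1085 of all 7574 tested genes. The plot of fold changes sets the members beside the gene taken from each list.

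**Figure D4:**
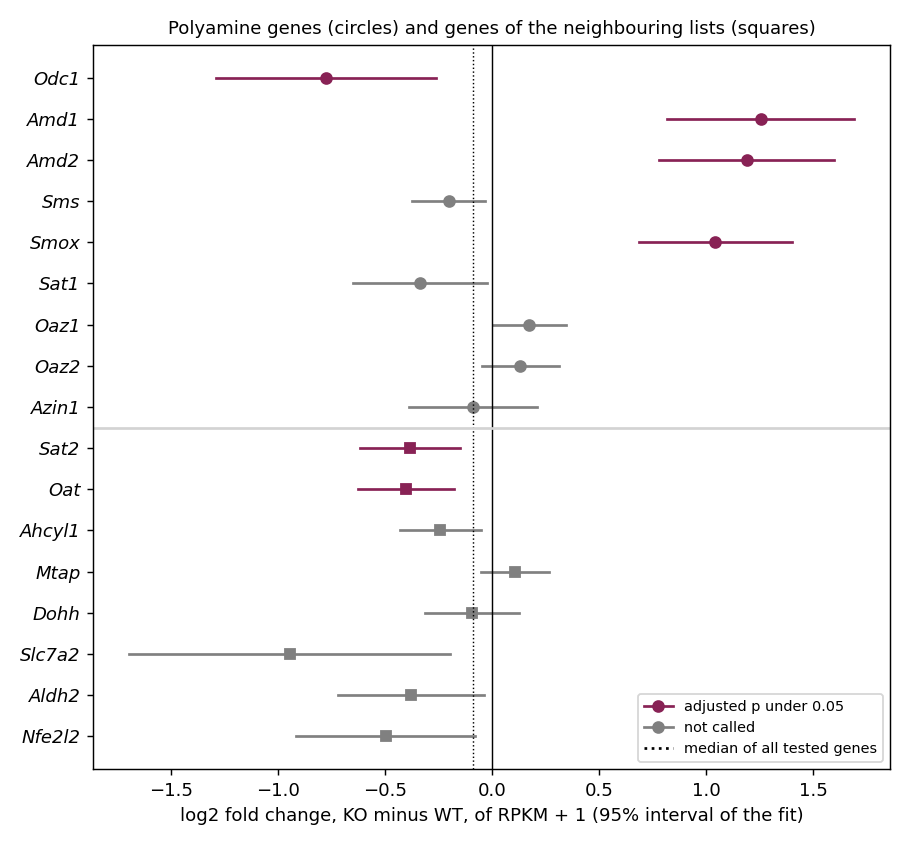
Log2 fold change (KO minus WT, of RPKM + 1) with its 95% interval from the fit for the 9 polyamine genes (circles) and for the genes named from the 8 neighbouring lists (squares), coloured where the adjusted p was under 0.05. The dotted line is the median of all tested genes, at -0.09; Amd1, Amd2 and Smox lie furthest to the right of it.

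Oat, the mitochondrial aminotransferase that consumes or makes ornithine, was the only one of 10 genes of ornithine and arginine supply that could be tested. It stood at 44.5, 48.2 and 39.3 RPKM in WT and at 31.0, 33.8 and 34.0 RPKM in KO (log2 fold change -0.40, SE 0.10, adjusted p = 0.0270 with limma). All KO libraries were below all WT libraries. Oat lost its call with either other scaling (adjusted p of 0.0689 and 0.0985), without any KO replicate and without WT replicate 2 or 3 (up to 0.104). Arg1 and Arg2, the arginases that supply ornithine, were absent from the table.

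Sat2, a relative of Sat1 with another main substrate, fell from 1.84 ± 0.348 to 1.17 ± 0.162 RPKM (log2 fold change -0.38, adjusted p = 0.0385 with limma). Its call ended with either other scaling (adjusted p of 0.127 and 0.0951), without any KO replicate and without WT replicate 3 (up to 0.121). Paox, the oxidase that acts on acetylated polyamines, was too low for the test. Named after its values were seen, it stood at 0.655, 0.562 and 0.42 RPKM in WT and at 0.228, 0.286 and 0.253 RPKM in KO, and it was called lower when no filter on low values was used (adjusted p = 0.0145).

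S-adenosylmethionine, the substrate of Amd1, is made by Mat2a and Mat2b. None of 6 tested genes of the methionine cycle passed in limma or limma-voom, with 1 higher and 1 lower at an unadjusted p under 0.05. Ahcyl1, a homologue of the hydrolase that clears S-adenosylhomocysteine, had the smallest p (log2 fold change -0.24, adjusted p = 0.0784). Mat2a, named after its values were seen, stood at 9.51, 10.9 and 14.2 RPKM in WT and at 17.5, 13.8 and 15.5 RPKM in KO, with WT replicate 4 above KO replicate 2 (0.42, adjusted p = 0.0870). Without WT replicate 4, and with replicate number as a block, 1 gene of the methionine cycle was called higher. Cth, also named after its values were seen, was too low for the test. It stood at 2.19, 0.771 and 0.787 RPKM in WT and at 0.146, 0.219 and 0.223 RPKM in KO. With no filter on low values it was called lower (log2 fold change -0.85, adjusted p = 0.0247 with limma). Mtap, which clears the methylthioadenosine left by Srm and Sms, went from 2.72 ± 0.0579 to 3.01 ± 0.0673 RPKM without passing (0.11, adjusted p = 0.31), and no other of the 4 tested genes of that salvage route passed in limma or limma-voom, nor had any an unadjusted p under 0.05.

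Spermidine is also used to form hypusine on the translation factor eIF5A. None of 3 tested genes of that step passed in limma or limma-voom, and none had an unadjusted p under 0.05. Dohh, the hydroxylase of the step, had the smallest p (log2 fold change -0.10, adjusted p = 0.514), with a sign that changed under either other scaling. Eif5a, named after its values were seen, had 29.4 ± 1.14 RPKM in WT and 30.1 ± 1.40 RPKM in KO.

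Of 3 tested transport genes none passed in limma or limma-voom, and 1 was lower at an unadjusted p under 0.05. This was Slc7a2, a carrier of cationic amino acids, at 8.97, 4.82 and 2.52 RPKM in WT and 1.57, 2.37 and 2.29 RPKM in KO (log2 fold change -0.95, SE 0.33, adjusted p = 0.0830). Its WT libraries were widely spread, and without WT replicate 4 it passed (-1.32, adjusted p = 0.00953), as it did with the replicate block (-1.19, adjusted p = 0.00915). The block also takes nothing from WT replicate 4, so these are not separate checks. Of 5 tested genes of amine and aldehyde oxidation none passed in either fit. Aldh2 came nearest, at 4.51 ± 1.23 RPKM in WT and 3.17 ± 0.219 in KO (adjusted p = 0.115).

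Among transcription factors known to act on polyamine genes, none of 5 tested passed in limma or limma-voom, and 1 was lower at an unadjusted p under 0.05. That was Nfe2l2, the antioxidant response factor, at 7.95, 4.82 and 4.45 RPKM in WT and 3.19, 4.06 and 3.75 RPKM in KO (log2 fold change -0.50, adjusted p = 0.0964). It passed without WT replicate 4 (-0.63, adjusted p = 0.047) and with the replicate block (-0.56, adjusted p = 0.0417), which likewise takes nothing from WT replicate 4. Named after its values were seen, Myc, a known activator of Odc1, had 0.426 ± 0.204 RPKM in WT and 0.392 ± 0.183 RPKM in KO, too low for the test.

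Markers of the muscle fibre were abundant in every library, with a summed level of 98905 to 107389 RPKM in WT and 107515 to 113617 in KO. Of these 10 genes 2 fell, beside 13.5% of all tested genes. They were Myh1, the myosin of type IIx fibres, and Mb, the oxygen store of oxidative fibres. Without KO replicate 1 or KO replicate 3 there were 0 such calls, and without WT replicate 2 or WT replicate 3 there was 1. The 10 most abundant genes took 44.4% to 48.3% of the reads of WT libraries and 50.2% to 53.9% of those of KO libraries, with WT replicate 2 the lowest. Of the Schwann cell markers Pmp22 fell, from between 8.66 and 13.7 RPKM in WT to between 2.39 and 3.28 RPKM in KO (log2 fold change -1.70, adjusted p = 0.00136 with limma). Mbp and Prx reached the filter only in WT, where they are high, and are not counted; Mbp stood at 1.01 to 1.45 RPKM in WT and 0.291 to 0.369 in KO, and Prx at 2.02 to 2.83 and 0.46 to 0.595. Of the endothelial markers Pecam1, Cdh5, Kdr and Tie1 were not called, and Cldn5, at 1.83 to 3.71 RPKM in WT and 0.687 to 0.741 in KO, reached the filter only in WT. With the replicate block 2 endothelial markers were called lower. The sum of the 6 measured was 16.5 to 25.7 RPKM in WT, highest in WT replicate 2, and 13.2 to 14.4 RPKM in KO. Of 4 tested markers of fibro-adipogenic progenitors 2 rose, beside 3.83% of all tested genes. Their sums over 6 genes were 14.0 to 23.5 RPKM in WT and 21.3 to 25.7 RPKM in KO. Without any 1 of the KO libraries, WT replicate 3 or WT replicate 4, 0 passed. Of the lymphocyte markers only Ighm was in the table, and it rose, from between 2.67 and 9.28 RPKM to between 12.5 and 21.6, a call lost without KO replicate 1 and without KO replicate 3. None of the 5 tested smooth muscle and pericyte markers, the 1 tested macrophage marker or the 4 tested red blood cell markers passed in limma or limma-voom, with 1, 0 and 0 lower and none higher at an unadjusted p under 0.05. In the alternatives, 4 red blood cell markers were called higher with the replicate block and 3 without KO replicate 1. Likewise 1 smooth muscle and pericyte marker was called higher under either other scaling and without WT replicate 2, and 1 lower with the block. Their summed levels were 63.7 to 104, 2.98 to 6.72 and 25.5 to 44.5 RPKM in WT and 70.4 to 88.4, 3.67 to 6.47 and 18.3 to 110 RPKM in KO. The 3 satellite cell markers in the table summed to 1.44 to 1.74 RPKM in WT and 1.71 to 1.88 in KO, and no adipocyte marker was in the table. The part of these cells in the polyamine values was not tested.

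The authors' deposited table holds a test of its own, which gave smaller changes for the called members. In the authors' deposited table the log2 fold changes were 0.95 for Amd1, 0.93 for Amd2, 0.73 for Smox and -0.54 for Odc1. The log2 ratios of the mean RPKM of these 6 libraries, computed here, were 1.24, 1.28, 1.06 and -0.80. No member had an FDR under 0.05 in the authors' deposited table, where 191 of 11815 genes (1.62%) did; the lowest among the members was 0.108, for Oaz2, and Amd1 was at 0.119. Which test and which libraries stand behind those columns was not given in the sources used here. Direction was the same in both for all 9 genes, and it was opposite in 20.8% of all tested genes. For Azin1 the authors' log2 fold change was only -0.0015.

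The higher levels of Amd1, Amd2 and Smox passed in all 12 alternatives tried here, with log2 fold changes of 1.09 to 1.47, 1.05 to 1.39 and 0.95 to 1.20 and adjusted p of at most 0.0332, 0.0313 and 0.0325. Odc1 passed in 5 of the 12. Amd1 and Amd2, whose reads cannot be fully told apart, are not independent results here.

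**Figure D5:**
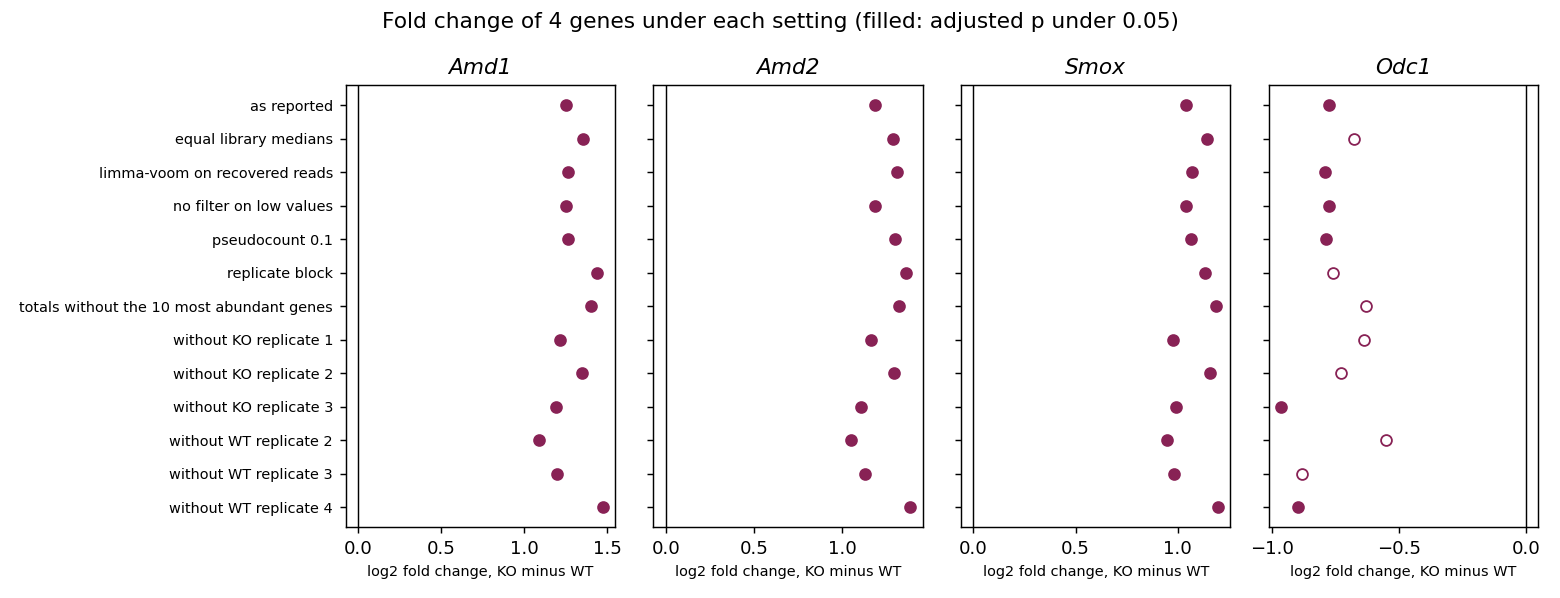
Log2 fold change (KO minus WT) of Amd1, Amd2, Smox and Odc1 as reported and under each of the 12 alternatives (rows), with filled points where the adjusted p was under 0.05. Amd1, Amd2 and Smox are filled throughout, and Odc1 is filled as reported and in 5 alternatives.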

How the data were processed

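The authors sequenced libraries made from fragmented mRNA with random-primed cDNA, per the labels' protocols; the submitters' processing notes name the build GRCm39, whereas the aligner, the counter, the annotation and any use of strand were not given in the sources used here. The deposited values are RPKM, inferred from the numbers because the header names no unit. Beside them the authors deposited a log2 fold change, a log2 CPM, an F score, a p-value and an FDR, named so per the file headers.

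RPKM times gene length and library total gave whole reads (within 0.02) in all 6 libraries for 100.0% of 11815 genes, with GENCODE M21 lengths for 9227 and lengths inferred from the values for the rest. The main test was limma-trend (limma 3.58.1, R 4.3.3) on log2(RPKM + 1), which understates changes of low genes, over genes reaching 1 RPKM in 3 or more libraries; genotype was the sole term. Intervals are those of this fit. Single ratios used exact permutation tests where a p-value is given.

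The polyamine genes and all lists were chosen with earlier results of these data known. Named genes were all members; per list up to 4 called genes, or that with the smallest p; and the 3 nearest profiles of the 2 members with the smallest p. Shared stretches and positions came from GENCODE M21 (GRCm38), and upstream windows from RefSeq. The fit was checked on simulated data with known changes. Python 3.11.15, pandas 2.3.3, numpy 2.4.6, scipy 1.17.1 and matplotlib 3.10.9 did the rest.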

Additional observations from a re-analysis of the deposited data

How the results depend on the processing

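Over all tested genes, calls went from 290 higher and 1021 lower to 378 and 1469 with no filter on low values, 377 and 1171 with the replicate block, and 117 to 344 and 354 to 1293 with 1 library left out. Calls of higher members were 3 under every alternative except totals without the 10 most abundant genes, where Oaz1 made them 4. The member called lower, Odc1, left 0 lower calls with equal library medians and with totals without the 10 most abundant genes, and 0 to 2 when 1 library was left out, since Sat1 joined it without WT replicate 4. Over the neighbouring lists, 0 genes were called higher and 2 lower as reported. Lower calls were 0 with equal library medians, 0 with totals without the 10 most abundant genes and 6 with no filter on low values. Those 6 were Sat2, Oat, Paox, Gatm, Cth and Aldh9a1. With 1 library left out, lower calls were 0 to 4 and higher calls 0 to 1. The sign changed for Azin1 (log2 fold change 0.0105 with equal medians, 0.0187 with totals without the 10 most abundant genes, and from -0.212 to 0.0436 with 1 library left out, the only sign change there being without WT replicate 2) and for Dohh (0.0049 with equal medians and 0.0306 with totals without those genes). Replicate numbers 2 and 3 occur in both genotypes, and nothing says that they pair animals; deviations correlated across genes at 0.48 and 0.27, and at 0.43 between WT replicate 4 and KO replicate 1, which share no number. With replicate number as a block, the genotype difference comes from replicates 2 and 3 only, and WT replicate 4 and KO replicate 1 do not add to it. There were then 3 higher and 1 lower members, the lower being Sat1 (-0.43, adjusted p = 0.0233) in place of Odc1 (-0.76, adjusted p = 0.0791). Among list genes 1 was higher and 4 were lower, the lower being Sat2, Oat, Slc7a2 and Nfe2l2. The log2 difference of summed Amd1 and Amd2 ranged from 1.11 to 1.498 and that of Odc1 over the antizyme genes from -1.13 to -0.70 with 1 library left out. With 3 libraries per genotype, small differences such as those of Sms, Oaz1 and Oaz2 are at the limit of what the spread allows to be seen.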
